A study of Mus musculus with 6 samples.

Results

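The genes described here encode the motors that move along microtubules, the kinesins and dyneins, with the light chains and the dynactin subunits that work with them. They were taken as every row of the per-library expression tables whose gene symbol is Kif followed by a number, Klc1 to Klc4, a Dync1 or Dync2 name, a Dynl name, or Dctn1 to Dctn6. This gave 64 of the 23038 genes listed, of which 58 were expressed highly enough to be tested. By known function they were sorted into 11 mitotic kinesins, 13 transport kinesins, 4 kinesin light chains, 5 subunits of cytoplasmic dynein-1, 2 of dynein-2, 9 dynein light chains, 6 dynactin subunits and 14 other kinesins. "Transport motors" below means the transport kinesins, kinesin light chains, dynein-1 and dynactin together (28 genes).

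The cells were mouse oligodendrocyte precursor cells (OPCs), the dividing progenitors of the myelinating glia. They were purified by immunopanning from embryos at E14.5 and grown in culture. Control siRNAs (siNC, n = 3 libraries) or 3 different siRNAs against Qk (siQk, n = 3 libraries) were transfected, and RNA was collected 72 h later. Poly-A RNA was sequenced from both groups. All 6 libraries therefore come from siRNA-transfected primary cultures with no further genotype, drug or age difference in the labels, and neither the mouse strain nor which siRNA went into which siQk library is stated. The siQk spread thus holds siRNA differences as well as culture differences.

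Kinesins are ATP-driven proteins most of which walk toward the plus ends of microtubules, and cytoplasmic dynein, with its activator dynactin, walks toward the minus ends. In cells that are not dividing, kinesin-1, kinesin-2 and kinesin-3 carry vesicles, organelles and RNA granules outward and dynein carries cargo back. In oligodendrocytes this traffic supplies long thin processes, and Mbp mRNA is carried along it. A separate set of kinesins serves mitosis, sliding spindle microtubules, moving chromosomes and organising the midbody, and the transcripts of that set are made mainly in G2 and M phase. Qk encodes the QKI proteins, which bind RNA at ACUAAC or ACUAAU sites and act in splicing, stability and localisation of glial RNAs.

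Promoter sequences of mitotic kinesins are shown first, because genes of this set rose together in siQk and because many G2 and M phase genes carry a shared element, the cell-cycle genes homology region (CHR). The letters searched were TTTGAA for the CHR and CCAAT for the CCAAT box that often stands upstream of it, each on both strands, and these motifs can share at most 1 base. RefSeq promoters of assembly GRCm38.p6 (250 bases before to 50 bases after an annotated start) were found for 49 of the 64 genes, including 10 of the 11 mitotic kinesins. The 4 shown are those of Kif23, Kif4, Kif18b and Kif11, each with both motifs. They lie at chr9:61946750-61947049 (minus strand), chrX:100625815-100626114 (plus strand), chr11:102925075-102925374 (minus strand) and chr19:37376132-37376431 (plus strand), at the annotated transcription start of the named gene. Each is written 5′ to 3′ on the strand of the gene, with CHR (TTTGAA or TTCAAA) and CCAAT box (CCAAT or ATTGG) letters in capitals.
Kif23: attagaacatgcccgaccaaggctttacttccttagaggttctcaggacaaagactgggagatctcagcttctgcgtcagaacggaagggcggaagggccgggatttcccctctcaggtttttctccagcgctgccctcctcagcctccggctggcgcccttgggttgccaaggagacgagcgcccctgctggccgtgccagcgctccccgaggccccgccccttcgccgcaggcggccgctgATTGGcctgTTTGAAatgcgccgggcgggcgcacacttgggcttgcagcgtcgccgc
Kif4: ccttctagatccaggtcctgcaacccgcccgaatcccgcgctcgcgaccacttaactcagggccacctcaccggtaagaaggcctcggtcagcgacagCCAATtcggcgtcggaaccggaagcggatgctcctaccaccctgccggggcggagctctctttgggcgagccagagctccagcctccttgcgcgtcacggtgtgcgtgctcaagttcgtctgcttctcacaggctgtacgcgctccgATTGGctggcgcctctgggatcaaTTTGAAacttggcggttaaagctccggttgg
Kif18b: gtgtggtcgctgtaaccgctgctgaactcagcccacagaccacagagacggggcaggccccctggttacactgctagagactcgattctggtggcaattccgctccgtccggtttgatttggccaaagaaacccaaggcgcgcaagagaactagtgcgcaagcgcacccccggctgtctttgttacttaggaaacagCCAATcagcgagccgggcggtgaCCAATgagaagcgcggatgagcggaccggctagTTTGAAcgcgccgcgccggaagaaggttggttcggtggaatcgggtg
Kif11: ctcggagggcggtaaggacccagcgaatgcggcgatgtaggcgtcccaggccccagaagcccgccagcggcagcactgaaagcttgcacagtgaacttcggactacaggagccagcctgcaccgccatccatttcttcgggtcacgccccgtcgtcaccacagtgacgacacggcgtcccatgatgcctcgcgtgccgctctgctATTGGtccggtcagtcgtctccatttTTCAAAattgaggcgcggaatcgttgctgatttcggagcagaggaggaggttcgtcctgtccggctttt

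The CHR letters were present in 9 of the 10 mitotic kinesin promoters (90%), the exception being Kif18a. They were present in 17.9% of all 32851 mouse promoters and in 11.4% of the 11524 promoters of tested genes. Among motor genes with a promoter, 2 of 21 transport motors and 2 of 11 other kinesins had them. In the 9 mitotic kinesins the match nearest to the start began at positions -228 to 19 relative to it (median -17). Of the 10 mitotic kinesin promoters, 7 had a match within 100 bases of the start, as against 4.36% of the promoters of tested genes. Of a list of other division genes, all outside the symbol rule, 16 of 20 promoters had it there. Among motor genes outside the mitotic class, Kif1a (-44), Kif26b (-9) and Kif27 (-73) also had a match within 100 bases of the start. Kif1a and Kif26b were not called and Kif27 was not tested. The CCAAT letters were present in 6 of 10 mitotic kinesin promoters and in 38.1% of promoters of tested genes. These are matches of letters in a fixed window, with no measure of binding.

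The transcript targeted by the siRNAs was checked before any motor gene. Qk (gene ID 19317, chr17:10206471-10319361) had 209, 206 and 163 RPKM (reads per kilobase of exon scaled to the reads of the library) in the siNC libraries and 51.3, 76.6 and 36.2 RPKM in the siQk libraries. Every siQk library was below every siNC library, and among the siQk libraries replicate 2 kept the most Qk and replicate 3 the least. The log2 fold change, siQk over siNC, was -1.98 ± 0.28 (SE), a 3.94-fold lower level (adjusted p = 0.00311, edgeR's quasi-likelihood test with Benjamini-Hochberg adjustment). The libraries held 58166490 to 141045937 sequence tags. The siNC replicate 1 was the smallest, and 3.11% of its tags fell on Rn45s, the ribosomal RNA precursor, against 0.169% to 0.389% in the others. OPC markers were expressed in both groups (8 genes, summed level 1023 to 1100 RPKM in siNC and 1217 to 1370 RPKM in siQk). Microglial markers summed to at most 3.32 RPKM and fibroblast and vascular markers to at most 4.96 RPKM in any library.

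In the comparison of siQk with siNC, a gene was called changed at an unadjusted P under 0.01 and an adjusted P under 0.1. Of the 58 motor genes tested, 29 (50%) were called, against 31.0% of the 12505 genes tested overall. Of these, 14 were higher in siQk (13.8% of all tested genes were called higher) and 15 were lower (17.2% of all tested genes). All 11 mitotic kinesins rose and none fell, with a median log2 fold change of 1.62, while of the 28 transport motors 3 rose, 9 fell and 16 were not called, with a median log2 fold change of -0.12. The median over all tested genes was 0.010. The classes were chosen with earlier results of these data known, so the count of 11 describes that list and is not a test. Kif2a, used in mitosis as well as outside it, was placed outside the mitotic class and was not called. The balance outside mitosis depended on scaling: normalised to library size alone, which moves the median of all genes to 0.16, 17 motor genes were called higher and 7 lower, and among the transport motors 5 were higher and 3 lower. The counts also depended on single libraries: 4 transport motors were lower without siQk replicate 1 and 5 without siQk replicate 2 or 3. Of the transport motors, 1 was higher when any library other than siNC replicate 2 was left out. Lower calls stayed in the majority with each library left out, at 70% to 85.7% of transport motor calls (75% with all libraries). Calls over all genes dropped too, to 2478 without siQk replicate 1 against 3879 with all libraries. All 11 mitotic kinesins were called higher in each of these analyses.

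**Figure D1:**
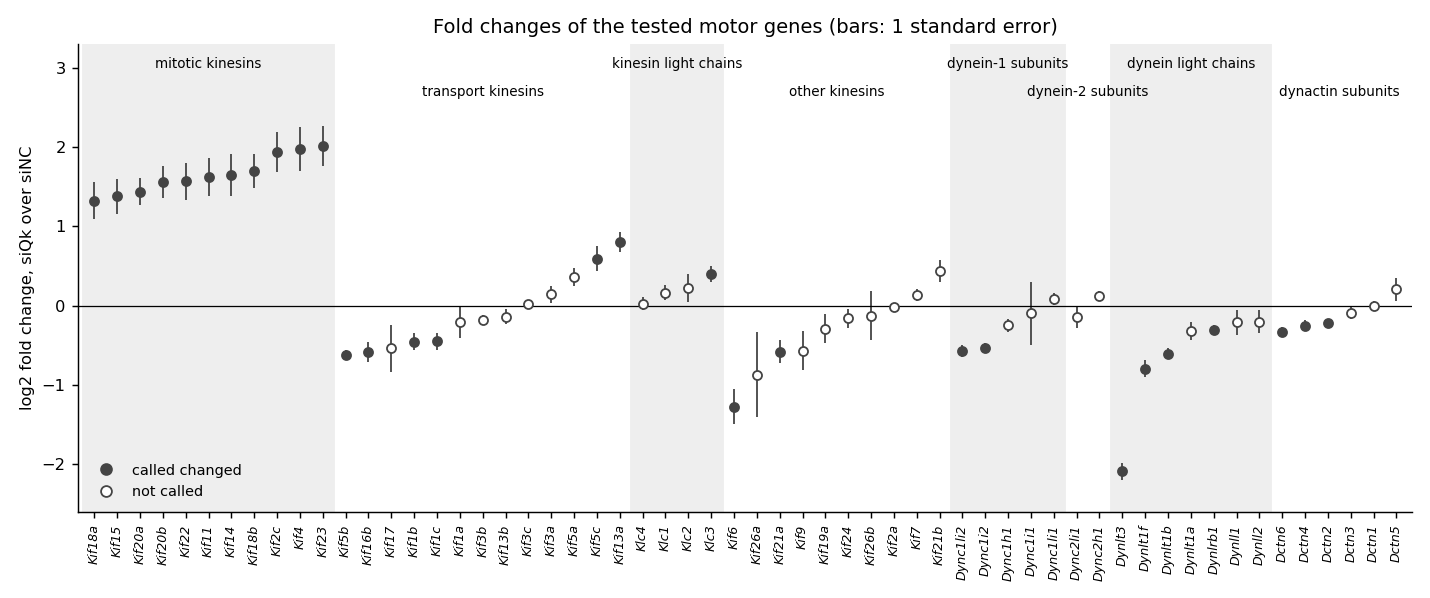
Log2 fold change, siQk over siNC, of the 58 tested motor genes, grouped by class on the horizontal axis and ordered by value within a class; points are edgeR estimates, bars are 1 standard error, filled points were called changed and open points were not. The mitotic kinesins lie between 1.33 and 2.01, above all other classes, and Dynlt3 is lowest at -2.09.

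The mitotic kinesins were scarce in control OPCs and 2.51-fold to 4.03-fold higher after Qk siRNA. Summed over the 11 genes, the level was 25.0 to 26.6 RPKM in the siNC libraries and 61.6 to 114 RPKM in the siQk libraries. In each of the 11, every siQk library exceeded every siNC library, an arrangement that 41.9% of all tested genes showed on the RPKM scale. The share of all tested genes with every siQk library below every siNC library was not counted. Lack of overlap in the falls described later therefore has no such share beside it. The log2 fold changes were close together, from 1.33 to 2.01, and each of the 11 was called higher under all 16 alternative analyses.

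**Figure D2:**
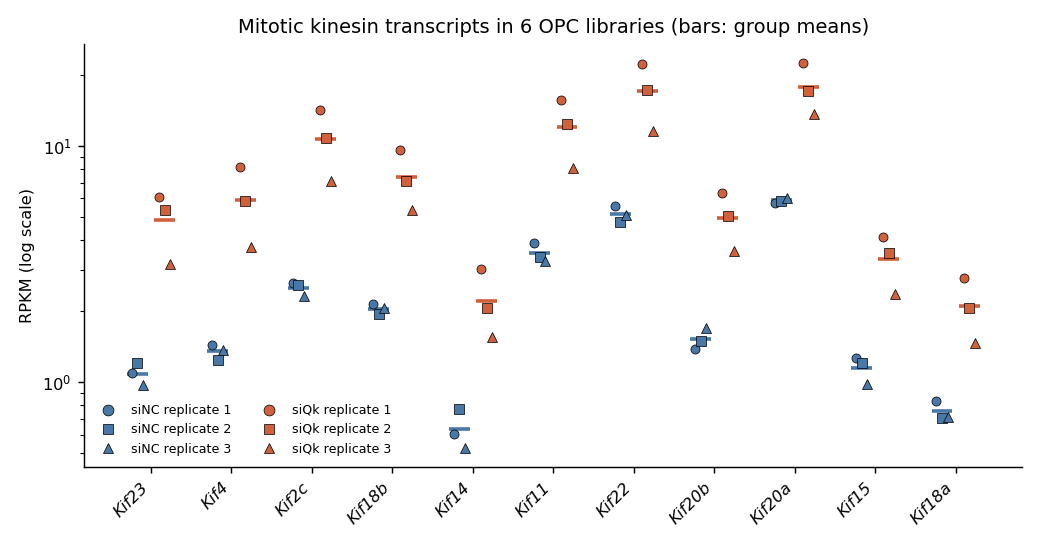
RPKM (log axis) of the 11 mitotic kinesins in each of the 6 libraries, ordered by log2 fold change; marker shape gives the replicate and short bars give the mean of each group of 3. All siQk points lie above all siNC points for each gene, and siQk replicate 1 is the highest and replicate 3 the lowest siQk library in all 11.

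Kinesins of the midbody and cytokinesis included the largest rise. Kif23 (chr9:61917277-61946810), the motor subunit of the centralspindlin complex, had 1.09, 1.20 and 0.969 RPKM in siNC and 6.10, 5.37 and 3.17 RPKM in siQk. The groups were far apart, and the log2 fold change was 2.01 ± 0.25 (adjusted p = 0.00215). Kif20a, which brings the chromosomal passenger complex to the central spindle, had 5.76, 5.83 and 6.06 RPKM in siNC and 22.4, 17.0 and 13.6 RPKM in siQk (log2 fold change 1.44 ± 0.17). The 3 control levels were nearly equal, so the spread lay on the siQk side. Kif20b, a motor of late cytokinesis, went from 1.38, 1.49 and 1.70 RPKM to 6.30, 5.03 and 3.61 RPKM (1.56 ± 0.20), and Kif14, which works with citron kinase at the midbody, went from 0.604, 0.770 and 0.527 RPKM to 3.00, 2.06 and 1.56 RPKM (1.65 ± 0.27). Kif14 was the least abundant mitotic kinesin in the control cells and the groups still did not overlap.

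Spindle motors and chromosome motors rose by similar factors. Kif11 (Eg5), the tetrameric motor that pushes spindle poles apart, had 3.90, 3.37 and 3.26 RPKM in siNC and 15.6, 12.5 and 8.06 RPKM in siQk, a log2 fold change of 1.62 ± 0.24. Kif15, which helps to hold the bipolar spindle, went from 1.27, 1.21 and 0.978 RPKM to 4.12, 3.53 and 2.36 RPKM (1.38 ± 0.22). Kif11 was the more abundant of these spindle motors in every library. The chromokinesin Kif4 (chrX:100626065-100727271) had 1.44, 1.24 and 1.37 RPKM in siNC and 8.15, 5.84 and 3.73 RPKM in siQk (1.98 ± 0.28), and Kif22, another chromokinesin, had 5.60, 4.77 and 5.09 RPKM in siNC and 22.2, 17.3 and 11.6 RPKM in siQk (1.57 ± 0.23). Both chromosome-arm motors were higher in all siQk libraries.

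The mitotic kinesins that shorten or restrain microtubules at their ends rose as well. Kif2c (MCAK), a microtubule depolymerase of the centromere, had 2.63, 2.58 and 2.32 RPKM in siNC and 14.2, 10.8 and 7.08 RPKM in siQk (log2 fold change 1.94 ± 0.25). Kif18b, a plus-end motor that works with Kif2c on astral microtubules, had 2.14, 1.94 and 2.06 RPKM in siNC and 9.65, 7.12 and 5.35 RPKM in siQk (1.70 ± 0.22). Kif18a, which dampens chromosome movements at the metaphase plate, had the smallest rise of the class, from 0.836, 0.709 and 0.713 RPKM to 2.75, 2.07 and 1.47 RPKM (1.33 ± 0.24). Adjusted p over the 11 genes lay between 0.00196 (Kif20a) and 0.00690 (Kif18a). Kif2a, a depolymerase used outside mitosis too and not in the mitotic class, was at 23.9 to 26.1 RPKM in siNC and 26.2 to 28.2 RPKM in siQk and was not called.

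The size of the rise differed among the siQk libraries in the same order for the whole class. On the scale that corrects for composition (trimmed mean of M-values, TMM), the median level of the mitotic kinesins against the siNC mean was 2.01 in siQk replicate 1, 1.58 in replicate 2 and 1.11 in replicate 3, in log2 units. Replicate 1 was highest and replicate 3 lowest for all 11 genes, whereas of the 1730 genes called higher overall 38.6% were highest in replicate 1 and 56.2% lowest in replicate 3 on the same scale. The library with the least residual Qk, replicate 3, had the smallest rise, and that with the most, replicate 2, the middle one. A link between residual Qk and the rise was not tested. The genes of the class share these libraries, so their common order is 1 observation of 3 libraries and not 11.

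**Figure D3:**
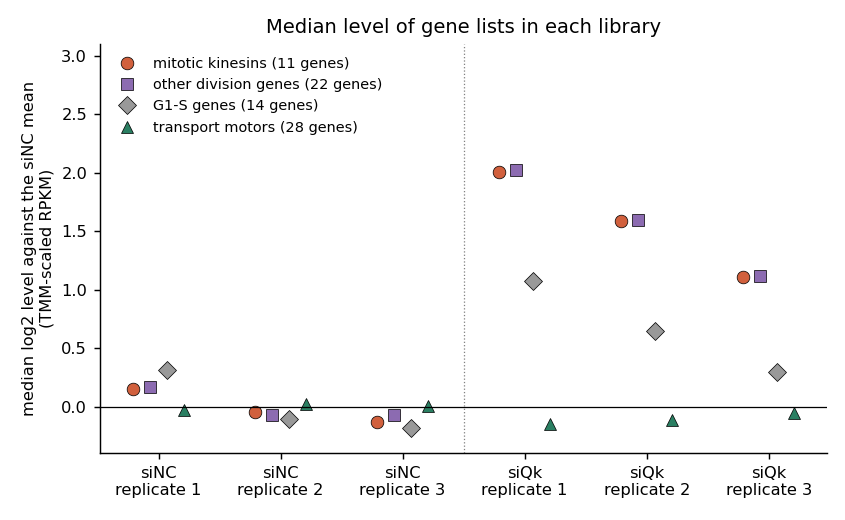
Median log2 level of 4 gene lists in each library relative to the siNC mean, from TMM-scaled RPKM. Mitotic kinesins and other division genes coincide (2.01 and 2.02 in siQk replicate 1, 1.11 and 1.12 in replicate 3), G1-S genes lie lower, and transport motors stay between -0.15 and 0.020 in all 6 libraries.

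Division genes outside the symbol rule rose in the same libraries. All 22 of a list of mitotic genes (among them the kinetochore proteins Cenpe and Cenpf) were called higher in siQk, with a median log2 fold change of 1.62. That list, too, was chosen with earlier results of these data known. Cenpe, itself a kinesin by sequence but outside the symbol rule, had 1.74, 1.26 and 1.69 RPKM in siNC and 9.12, 7.62 and 4.85 RPKM in siQk (2.05 ± 0.25, adjusted p = 0.00215). Its order among the siQk libraries was that of the mitotic kinesins. Of 14 genes of the G1-S transition, 5 were called higher and 9 were not called (median log2 fold change 0.69), including as called genes Mcm5, a subunit of the replicative helicase (1.26 ± 0.26), and Cdt1, its loader (1.15 ± 0.24). The kinesin-14 genes Kifc1 and Kifc5b of chromosome 17, minus-end motors that also lie outside the rule, rose by 1.71 ± 0.23 and 1.72 ± 0.25 on the log2 scale. They are near-identical copies, so their tags may be split between them.

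Among the transport kinesins, 2 rose, 4 fell and 7 were not called. Kinesin-1, the general anterograde carrier, has 3 heavy chain genes, which moved apart. Kif5b, the ubiquitous heavy chain, had 98.1, 102 and 108 RPKM in siNC and 73.0, 74.2 and 75.5 RPKM in siQk. The groups were separated by more than the spread within either, and the log2 fold change was -0.62 ± 0.06 (adjusted p = 0.00111). Kif5c, a heavy chain enriched in neurons, had 10.7, 16.6 and 12.8 RPKM in siNC and 20.3, 21.1 and 25.4 RPKM in siQk (0.59 ± 0.16, adjusted p = 0.027). Its call was lost when any 1 library other than siNC replicate 2 was left out (log2 fold change 0.48 to 0.65). Kif5a, also neuronal, was at 4.77, 6.28 and 6.69 RPKM in siNC and 8.28, 7.81 and 9.10 RPKM in siQk and was not called (0.36 ± 0.11, unadjusted P = 0.016).

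As a share of the summed RPKM of the 3 kinesin-1 heavy chains, Kif5b made up 84.3% ± 2.35 (SD, n = 3) in siNC and 70.8% ± 1.87 in siQk. Kif5c made up 10.9% ± 2.06 and 21.2% ± 1.64, and Kif5a 4.82% ± 0.552 and 8.0% ± 0.370. For each gene the share in every siQk library lay outside the range of the siNC libraries. The sum itself was 122 ± 7.47 RPKM in siNC and 105 ± 4.49 RPKM in siQk. These shares are given as a description of the same values that the fold changes use. Neuronal markers, given because Kif5a and Kif5c are enriched in neurons, summed to 116 to 195 RPKM in siNC and 115 to 154 RPKM in siQk. Most of this sum was Tubb3 (97.6, 166 and 106 RPKM in siNC and 104, 68.4 and 103 RPKM in siQk), which was not called. The median log2 fold change of the 10 tested markers was 0.72. Of the 10 tested, 3 were higher and 1 lower, among them the synaptic gene Snap25 (0.641, 0.886 and 0.725 RPKM in siNC and 4.63, 3.35 and 7.57 RPKM in siQk) and Gad2, the enzyme of GABA synthesis, which was lower (-2.19 ± 0.28). Of the other 2 markers, Stmn2 was below 0.05 RPKM in every library and Slc17a7 was also too low to be tested. The part of such cells in the kinesin-1 values was not tested.

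**Figure D4:**
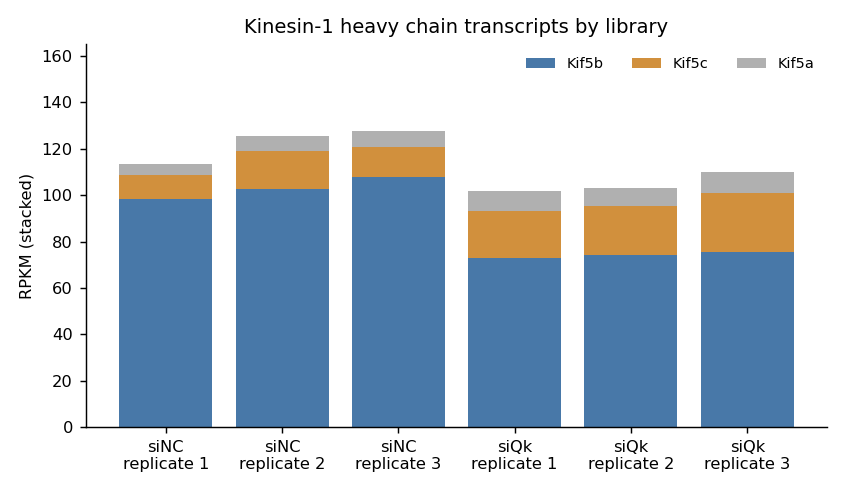
Stacked RPKM of the kinesin-1 heavy chain genes Kif5b, Kif5c and Kif5a in each of the 6 libraries, from 0. Kif5b falls from 98.1 to 108 RPKM in siNC to 73.0 to 75.5 RPKM in siQk while Kif5c rises.

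The largest rise among transport motors was in Kif13a, a kinesin-3 that positions recycling endosomes. Kif13a (chr13:46749087-46929917) had 21.7, 31.0 and 31.2 RPKM in siNC and 55.9, 49.6 and 55.7 RPKM in siQk. The siNC replicate 1 was the lowest of all and the groups did not overlap (0.80 ± 0.12, adjusted p = 0.00446). The other kinesin-3 genes went down or were not called. Kif1b, a carrier of mitochondria and synaptic vesicle precursors, was at 71.4, 81.4 and 70.4 RPKM in siNC and 60.2, 54.4 and 65.8 RPKM in siQk (-0.46 ± 0.11). Kif16b, an early endosome motor, was at 4.37, 6.36 and 6.17 RPKM and 3.95, 4.58 and 3.93 RPKM, with siNC replicate 1 inside the siQk range (-0.59 ± 0.13). Kif1c, picked out after its values were seen, was at 27.3, 28.9 and 23.4 RPKM and 20.5, 22.5 and 21.8 RPKM (-0.45 ± 0.10). These 3 calls rested on few libraries. That of Kif1b was lost when either of replicates 1 and 2 of siNC or of siQk was left out (-0.46 to -0.38), that of Kif16b without siNC replicate 3 or siQk replicate 1 or 3 (-0.55 to -0.54), and that of Kif1c without any library but siNC replicate 3 (-0.47 to -0.39).

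Kif1a, the transport kinesin with the highest mean level over the 6 libraries, at 125, 72.7 and 112 RPKM in siNC and 94.7, 101 and 104 RPKM in siQk, was not called. In siNC replicate 2 both Kif5b and Kif1b exceeded it. Its siNC libraries spread more widely than the groups differed, and the log2 fold change of -0.21 ± 0.21 became 0.0027 without siNC replicate 1 and was called at -0.42 without siNC replicate 2. The kinesin-2 genes, motors of intraflagellar transport and of axonal cargo, gave no call. Kif3a, Kif3b and Kif3c had log2 fold changes of 0.14, -0.18 and 0.02. Kif13b was at 8.01 to 10.8 RPKM over all libraries and Kif17 at 0.201 to 0.441 RPKM, and neither was called.

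The kinesin light chains join kinesin-1 to its cargo. On the RPKM scale, not corrected for composition, they summed to 134 to 155 RPKM in siNC and 163 to 190 RPKM in siQk. Klc1 provided most of this (78.2% ± 2.78 in siNC and 78.0% ± 1.88 in siQk) and was not called, at 108, 117 and 117 RPKM in siNC and 150, 124 and 151 RPKM in siQk (0.16 ± 0.10). Klc3 was the 1 light chain called, from 3.39, 4.17 and 4.17 RPKM to 5.63, 6.19 and 5.39 RPKM (0.40 ± 0.10, adjusted p = 0.0228). Its groups did not overlap, but the call was lost when any library except siNC replicate 2 was left out (0.35 to 0.44). Klc2 and Klc4 had log2 fold changes of 0.23 and 0.02.

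Of the 5 dynein-1 subunits, 2 that link the motor to dynactin and cargo fell and 3 were not called. The dynein-1 heavy chain Dync1h1, which holds the motor domain, was at 53.8, 60.3 and 58.4 RPKM in siNC and 48.8, 58.4 and 53.9 RPKM in siQk. These ranges overlapped and the gene was not called (-0.25 ± 0.08, unadjusted P = 0.020). Dync1i2, the widely expressed intermediate chain that binds dynactin, had 56.8, 59.5 and 63.0 RPKM in siNC and 46.4, 45.4 and 45.5 RPKM in siQk (-0.54 ± 0.06, adjusted p = 0.00137). Dync1li2, a light intermediate chain that binds cargo adaptors, had 66.7, 75.6 and 66.8 RPKM in siNC and 50.5, 54.0 and 51.6 RPKM in siQk (-0.57 ± 0.07, adjusted p = 0.00253). Both fell without overlap, an arrangement whose share among all tested genes was not counted, and both stayed called under all 16 alternatives. Their paralogs were not called: Dync1li1 was at 41.4 to 43.5 RPKM in siNC and 48.2 to 51.3 RPKM in siQk (0.08 ± 0.07 after TMM scaling), and Dync1i1, the neuronal intermediate chain, was at 0.449 to 1.13 RPKM over all libraries. The dynein-2 genes of cilia were not called, Dync2li1 at 34.9 to 46.1 RPKM in siNC and 35.4 to 47.0 RPKM in siQk and Dync2h1 at 3.44 to 4.21 and 4.42 to 4.92 RPKM.

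Dynlt3 showed the strongest decrease of all motor genes. Dynlt3 (gene ID 67117, chrX:9654270-9662983) encodes a Tctex-type dynein light chain, and had 114, 113 and 109 RPKM in siNC and 25.4, 30.2 and 32.2 RPKM in siQk. The replicates of each group were close and the groups far apart, with a log2 fold change of -2.09 ± 0.11, a 4.26-fold lower level (adjusted p = 0.000336). Of the 4 Tctex-type genes of chromosome 17, Dynlt1b and Dynlt1f fell. Dynlt1b had 56.3, 53.4 and 59.5 RPKM in siNC and 40.7, 40.9 and 41.8 RPKM in siQk (-0.61 ± 0.07), and Dynlt1f had 5.71, 5.40 and 5.96 RPKM and 3.58, 4.06 and 3.29 RPKM (-0.80 ± 0.11). Dynlt1a, at 6.27 to 6.40 RPKM in siNC and 5.38 to 5.87 RPKM in siQk, was not called, and Dynlt1c was too low in tags to be tested. These 4 genes are near-identical copies, so how tags were divided among them is uncertain.

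Of the remaining light chains, 1 was called, by a small amount. Dynlrb1, a roadblock-type chain, had 238, 242 and 262 RPKM in siNC and 223, 215 and 230 RPKM in siQk. The ranges were next to each other without overlap, the log2 fold change was -0.30 ± 0.06, and the call was lost when scaling used library size alone (-0.15). Dynll1, the LC8-type chain found in many complexes besides dynein, had 313, 230 and 236 RPKM and 264, 227 and 260 RPKM and was not called, nor was Dynll2 (180 to 254 RPKM in siNC and 209 to 235 RPKM in siQk). Dynlrb2 was at 0.234 to 1.41 RPKM and was not tested.

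**Figure D5:**
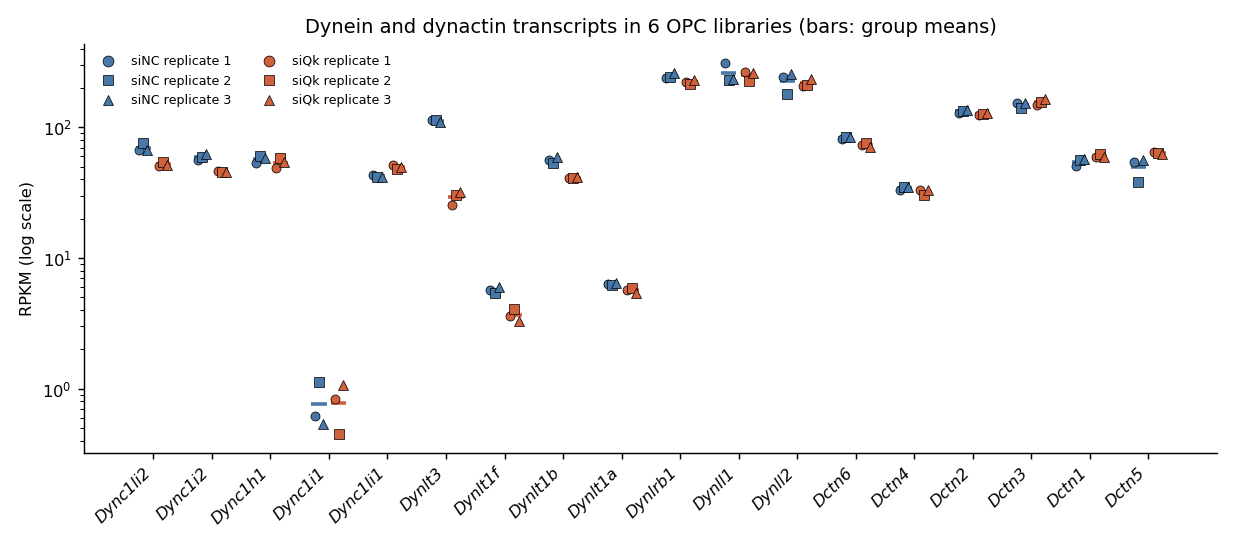
RPKM (log axis) of the tested dynein-1, dynein light chain and dynactin genes in each of the 6 libraries; marker shape gives the replicate and short bars give the mean of each group of 3. Dynlt3 drops from 109 to 114 RPKM in siNC to 25.4 to 32.2 RPKM in siQk, while most of the other genes lie close together in the 2 groups.

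Dynactin, the complex that activates dynein, had 3 of its 6 measured subunits called lower by small amounts. Dctn6, a subunit of the pointed end, had 81.0, 84.8 and 84.1 RPKM in siNC and 73.8, 76.4 and 70.6 RPKM in siQk (-0.33 ± 0.06, adjusted p = 0.00571), and was called in all alternatives but library size alone (-0.18). Dctn2 (dynamitin) had 129, 132 and 136 RPKM and 124, 126 and 128 RPKM (-0.22 ± 0.06), and Dctn4 had 33.3, 35.2 and 34.7 RPKM and 32.9, 30.1 and 33.2 RPKM (-0.25 ± 0.07). In all 3 the siQk range lay below the siNC range, by little in Dctn2 and Dctn4. The share of all tested genes with this arrangement was not counted. The call of Dctn2 was lost in 10 of the 16 alternatives (all libraries left out in turn but siNC replicate 2, -0.24 to -0.20) and that of Dctn4 in 11, including each of the 6 with 1 library left out (-0.28 to -0.20). Dctn1, the large subunit that touches the microtubule, had a log2 fold change of -0.00 ± 0.06, Dctn3, the most abundant subunit, -0.09 ± 0.08 and Dctn5 0.21 ± 0.15, none called.

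The other kinesins held the second largest fall among the motor genes. Kif6, a kinesin of motile cilia, had 0.705, 1.19 and 0.871 RPKM in siNC and 0.360, 0.444 and 0.466 RPKM in siQk. Low in both groups, it still showed no overlap (-1.27 ± 0.22, adjusted p = 0.00622) and remained called under all 16 alternatives. Markers of ciliated ependymal cells, cells of the ventricle wall, summed to 13.5 to 17.1 RPKM in siNC and 9.14 to 10.6 RPKM in siQk. Of 10 genes 5 could be tested. Of these, 2 were lower, the ciliogenesis factor Foxj1 (-1.30 ± 0.16) and the axonemal dynein chain Dnaic2 (-1.30 ± 0.21). The 3 others tested were not called. They were Ccdc39 (3.38 to 4.19 RPKM in siNC and 3.98 to 4.66 RPKM in siQk, -0.03 ± 0.10), Dnahc9 (0.14 ± 0.16) and Dnahc5 (-0.70 ± 0.25). None of the 10 was at 0 in all libraries, and their part in the Kif6 value was not tested. Kif9, also ciliary, was not called (-0.57 ± 0.25).

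Kif21a and Kif21b, kinesin-4 motors that restrain microtubule growth, had changes of opposite sign. Kif21a had 28.2, 28.8 and 24.9 RPKM in siNC and 19.0, 17.6 and 24.2 RPKM in siQk (-0.58 ± 0.14, adjusted p = 0.0204). Its siQk replicate 3 lay just under the lowest control, and the call was lost when either of replicates 1 and 2 of siNC or of siQk was left out (-0.56 to -0.48). Kif21b, the most abundant of the other kinesins, had 35.2, 25.5 and 33.4 RPKM in siNC and 47.4, 46.0 and 48.4 RPKM in siQk. The groups were separate, yet it missed the threshold on unadjusted P (0.44 ± 0.14, unadjusted P = 0.017), and it was called in 7 of the 16 alternatives. Kif7, a regulator of Hedgehog signalling, Kif19a, Kif24, Kif26a and Kif26b were not called. Kif12 and the pseudogene Kif4-ps had no tags in any library, Kif2b reached 0.010 RPKM in 1 library and Kif27 lay between 0.118 and 0.200 RPKM.

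Genes that bind or regulate these motors were taken from a list of 50 partners and adaptors, of which 48 were tested. That list also held kinesins outside the symbol rule: Kifc1 and Kifc5b, described above, Kifc2 and Kifc3. Of the 48, 20 (41.7%) were called, and the median log2 fold change was -0.053. Over all tested genes 31.0% were called, 13.8% higher and 17.2% lower. Of the 48, 10 were called higher, Kifc1 and Kifc5b among them, and 10 lower, Kifc3 among them. Among those lower were the following. Spag9 (JIP4), a scaffold that joins vesicles to kinesin-1 and dynactin, had 76.9, 101 and 99.1 RPKM in siNC and 46.7, 52.2 and 45.9 RPKM in siQk (-1.08 ± 0.10). Ktn1 (kinectin), a membrane protein that binds kinesin-1, fell by 0.81 on the log2 scale, and the lysosomal GTPases Arl8a and Arl8b, which recruit kinesins to lysosomes, by 0.62 and 0.55. All 4 were called under all 16 alternatives. Hap1, which links huntingtin to dynactin and kinesin, had 25.4, 19.8 and 21.8 RPKM in siNC and 56.7, 56.9 and 59.5 RPKM in siQk (1.21 ± 0.12). Ccdc99 (Spindly), the dynein adaptor of kinetochores, went from 0.844, 1.03 and 0.848 RPKM to 3.55, 2.59 and 2.06 RPKM (1.44 ± 0.22), with the order among the siQk libraries seen in the mitotic kinesins.

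The 3′UTRs of the motor genes were searched for the letters of the QKI recognition site, ACTAAC or ACTAAT on the transcript strand (T stands for U). Windows of up to 30 bases are shown for genes that fell, 2 for Dynlt3 and 1 for each of Dync1li2, Kif1b and Kif6, and once for the window common to Dynlt1b and Dynlt1f, with the site in capitals. On mm10 they lie at chrX:9655634-9655663 and chrX:9654887-9654916 (minus strand), chr8:104419674-104419703 (minus strand), chr4:149178750-149178779 (minus strand), chr17:49909066-49909095 (plus strand) and, for Dynlt1b, chr17:6436231-6436260 (plus strand).
Dynlt3, first site: atctatttagatACTAACattatcattaac
Dynlt3, second site: caactgtgtgtgACTAATttaaaaatactt
Dync1li2: acaggctggccaACTAATagaaaaagggtg
Kif1b: aaagtataggttACTAACtgtaatgttact
Kif6: ttcttcttaaagACTAATttcaaagtgtgt
Dynlt1b and Dynlt1f: tgattcagatacACTAACtttccatacttt

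Of the 15 motor genes called lower, 10 (66.7%) had at least 1 site, or 0.750 sites per kb of 3′UTR. Of the 14 called higher, 2 (14.3%) had at least 1, or 0.269 sites per kb. These were Kif15, with 3 sites in 606 bases, and Kif4, with 1. Of the 29 not called, 9 (31.0%) had at least 1, or 0.252 sites per kb. Among all tested genes with a 3′UTR the share was 36.1%, or 0.345 sites per kb. In those called lower it was 53.3%, or 0.499 sites per kb, and in those called higher 26.9%, or 0.243 sites per kb. The 3′UTRs of the motor genes called lower were longer (median 1174 bases) than those of the motor genes called higher (580.5 bases), and longer stretches hold more matches. The median was 1286 bases over all tested genes and 1565.5 bases over all genes called lower, both longer than in the motor genes called lower. Dynlt1b and Dynlt1f count as 2 genes here with the same site. Dynlt1a and Dynlt1c carry this window too and were, in turn, not called and not tested. A match is a run of letters in the annotated 3′UTR and no binding was measured.

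Transcripts of other cell stages and types moved between the same groups. Of 10 myelin genes 9 were lower in siQk (median log2 fold change -1.67), their summed level being 3455 to 6034 RPKM in siNC and 1466 to 2197 RPKM in siQk, and the lowest were Mal (-4.73 ± 0.82) and Mobp (-4.59 ± 1.14). Of 8 OPC markers 3 were higher and 1 lower, the largest changes being Lhfpl3 (-1.07 ± 0.11) and Cspg4, the NG2 proteoglycan (0.93 ± 0.14). Of 7 astrocyte markers tested 4 were lower, including the filament protein Gfap (-2.95 ± 0.26) and Aldh1l1 (-2.21 ± 0.17), and their median log2 fold change was -1.06. The 8 markers summed to 289 to 410 RPKM in siNC and 284 to 307 RPKM in siQk. Most of that sum was Aldoc (82.6 to 104 RPKM in siNC and 100 to 118 RPKM in siQk) and S100b (110 to 159 RPKM and 147 to 175 RPKM), neither called. The 1 microglial gene tested, P2ry12, was lower (-3.16 ± 0.61), at 0.669, 3.20 and 1.19 RPKM in siNC and 0.152, 0.186 and 0.287 RPKM in siQk. The 1 fibroblast or vascular marker tested was not called. In these bulk libraries a change in the proportion of cells at a stage cannot be told apart from a change in RNA per cell, and the part of these lists in the motor gene values was not tested.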

How the data were processed

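RNA was sequenced from 3 siNC and 3 siQk libraries of mouse OPCs. The labels give each library a replicate number, and the paper describes the replicates as biological. The authors aligned paired reads to mm10 with OLego and counted them per gene with Quantas, and the deposited values are an estimated count of tags per gene (not always whole), the exon length, and RPKM per library. Tool versions are not given in the sources used here. The deposited RPKM was used as given and equals tags per kb of exon scaled to the library's tags, without correction for composition.

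Tag counts were rounded and normalised by TMM, with factors of 0.899 to 0.987 in siNC and 1.04 to 1.07 in siQk. Genes with an average log2 CPM above 0 were tested across the whole table (12505 genes) with edgeR 4.0.16 in R 4.3.3, by the quasi-likelihood test with group as the only term. Genes were called at P under 0.01 and a Benjamini-Hochberg adjusted P under 0.1, and a standard error is the fold change divided by the root of F. Every fold change, SE and adjusted p in the report comes from this fit, except values given for a named alternative or with a library left out. With 3 against 3 libraries an exact permutation test cannot go below 0.1, so none was run. The scripts were tested on simulated counts. No pair of libraries within a group agreed within sampling noise (chi-square per degree of freedom at least 36.3). Total tags limit the precision of low genes, and counting error is only part of the spread.

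Motor classes, partners and marker lists came from general knowledge and were chosen with earlier results of these data known, as were the genes themselves. Named were Qk, each mitotic kinesin, the called members of each other class (at most 5) with its most abundant member, members too low to test, the 4 highest and 4 lowest called partners, and 2 called genes of each other list. Kif1c and the uncalled members with values were added after their values were seen. Gene positions and promoters come from RefSeq tables of GRCm38.p6, the assembly of mm10, and 3′UTRs from a GENCODE annotation of that assembly, with 1 transcript per gene and a 3′UTR of at least 50 bases. Alternatives were other scalings (library size alone, upper quartile, relative log expression), other filters, DESeq2 1.42.0, edgeR's exact test, a stricter threshold, counts thinned to the smallest library, the replicate number as a block, and each library left out.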

Additional observations from a re-analysis of the deposited data

How the results depend on the processing

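Qk and all 11 mitotic kinesins kept their direction and their call in all 16 alternatives. The Qk log2 fold change lay between -2.29 and -1.76, and the mitotic median between 1.36 and 1.84. Of the 18 other called motor genes, 8 kept their call throughout (Kif13a, Kif5b, Dync1li2, Dync1i2, Dynlt3, Dynlt1f, Dynlt1b and Kif6), and 58 of the 288 values for the 18 lost it, none with a change of direction. Normalised to library size alone, which raises the median of all genes to 0.16, 7 motor genes were called lower (15 as reported), 3 transport motors lower (9 as reported) and 5 higher (3 as reported), and the median log2 fold change of the transport motors was 0.027 (-0.12 as reported). Dync2li1 (0.0015) and Dctn3 (0.064) changed sign with that scaling, neither being called. With upper quartile scaling the transport median was -0.059. Leaving out each library in turn gave 9 to 13 motor genes lower, 4 to 7 transport motors lower, 1 to 3 higher, and a transport median of -0.17 to -0.095, fewer calls coming with fewer samples (2478 to 3704 of all genes called, 3879 with all). The smallest count of lower motor genes, 9, was without siQk replicate 1. Kif1a lay between -0.42 and 0.0027, the latter without siNC replicate 1.

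Libraries with the same replicate number did not deviate together (correlations of -0.053, -0.15 and -0.34), so the numbers were not taken to pair them. With the replicate block, 2796 genes were called, 5 transport motors were lower and 1 was higher. DESeq2 called 4894 genes. Counts thinned to the smallest library gave the same 14 motor genes higher and 15 lower in number. Kif12 and Kif4-ps had no tags at any depth used here.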
